A study of Mus musculus with 9 samples.

Results

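Matrix metalloproteinases are zinc enzymes that cut collagens, elastin and other proteins of the extracellular matrix. The genes described here are 6 of them (Mmp2, Mmp8, Mmp12, Mmp14, Mmp15 and Mmp19), the related secreted protease Adamts12, and Timp1. Timp1 codes for a protein inhibitor of many metalloproteinases, though not equally of all those listed here. Mmp8, Mmp12, Mmp14, Mmp19, Adamts12 and Timp1 were chosen by name, and the other 2 are all further Mmp symbols in the authors' tables of the comparisons. Together they are 8 of 1908 genes that carry a name here. A name exists only where the authors listed a probe set as changed in at least 1 comparison, so the members were in part chosen on these arrays. RefSeq annotates 23 protein-coding Mmp genes in GRCm38.p6, and the Mmp genes without a name in the tables were not analysed here.

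The study measured total RNA of whole lung from 9 male C57BL/6J mice aged 11 weeks, in 3 groups of 3, each mouse on 1 Affymetrix array. At 8 weeks of age the mice received PBS (the group labelled vehicle-treated) or 2 U/kg of bleomycin (both other groups) into the trachea. Bleomycin is a DNA-breaking antibiotic that causes lung fibrosis in rodents. From 5 days later, injections into the peritoneum followed 2 times a week for 15 days, of 0.545 mg/kg homoharringtonine in the third group and of its vehicle otherwise. Homoharringtonine is a plant alkaloid that blocks translation elongation. No group received homoharringtonine without bleomycin, so an effect of the drug on the uninjured lung cannot be seen. The model is an acute chemical injury, and each group has 1 dose and 1 time point.

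Most metalloproteinases are made as inactive precursors, and a precursor may be activated by another protease. Mmp14 sits in the cell membrane and activates the precursor of Mmp2, with help from an inhibitor of the Timp family. Mmp12 is known as the macrophage elastase and Mmp8 as the neutrophil collagenase. In fibrotic lung both the deposition and the removal of matrix are altered, and the level of an mRNA says nothing of how much enzyme is active.

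Each gene has 1 named probe set, of 21 to 34 probes. Probe sets without a name may also belong to these genes and were not used. None of the 8 named ones was marked in the authors' tables as shared with other genes (cross-hybridisation type 1). By the coordinates in those tables, Mmp12 (gene 17381) lies on chromosome 9 from 7344381 to 7369499 and Mmp8 (gene 17394) on chromosome 9 from 7558429 to 7568486. Mmp2 (gene 17390) lies on chromosome 8 from 92827328 to 92853420 and Mmp15 (gene 17388) on chromosome 8 from 95352268 to 95374293. Mmp19 (gene 58223) spans 128790910 to 128800824 on chromosome 10, and Mmp14 (gene 17387) spans 54431604 to 54441258 on chromosome 14. Adamts12 (gene 239337) spans 11064790 to 11346867 on chromosome 15, and Timp1 (gene 21857) spans 20870166 to 20874737 on the X chromosome. All 8 are on the plus strand. The sources used here do not give the genome build of these coordinates, and all 8 overlap the RefSeq gene of the same identifier in GRCm38.p6. A probe set summarises probes along the transcript, so a change in one isoform cannot be told from a change in all.

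Promoter windows from RefSeq (GRCm38.p6, 250 bases before to 50 after an annotated start) were found for 6 of the 8 genes, in 7 windows, since Mmp12 has 2 annotated starts. The windows of Mmp12 (later start, chr9:7347124-7347423, plus strand) and Timp1 (chrX:20869916-20870215, plus strand) are shown because Mmp12 kept the largest share of its bleomycin rise with homoharringtonine and Timp1 is the only one that the authors' deposited table lists as lower against bleomycin. They were chosen after these values were seen. Capitals mark TGANTCA, the consensus site of the AP-1 transcription factors (both strands searched), and TATAAA, the TATA box (plus strand of the gene searched). Sites that differ from these letters were not searched.
Mmp12: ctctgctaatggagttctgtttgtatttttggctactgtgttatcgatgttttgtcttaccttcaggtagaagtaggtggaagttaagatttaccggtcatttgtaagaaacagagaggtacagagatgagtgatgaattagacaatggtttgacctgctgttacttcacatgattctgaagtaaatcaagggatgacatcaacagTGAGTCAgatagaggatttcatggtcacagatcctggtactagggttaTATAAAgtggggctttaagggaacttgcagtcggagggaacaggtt
Timp1: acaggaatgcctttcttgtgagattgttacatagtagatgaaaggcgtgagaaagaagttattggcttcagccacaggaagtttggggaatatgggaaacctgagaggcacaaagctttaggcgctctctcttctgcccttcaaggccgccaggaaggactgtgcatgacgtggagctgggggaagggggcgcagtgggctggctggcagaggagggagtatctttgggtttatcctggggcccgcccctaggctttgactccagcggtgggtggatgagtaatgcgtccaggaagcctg
The Mmp12 window shown holds 1 AP-1 match, TGAGTCA, which begins at position -44 from the annotated start, and 1 TATA match, which begins at position 5. The window of the earlier Mmp12 start (chr9:7344147-7344446), not shown, holds neither. In the Timp1 window neither set of letters occurs, which does not mean that it lacks an AP-1 site with other letters. Of the 7 member windows 1 holds the AP-1 letters, where 7.81% of 32851 promoter windows do, and 8.32% of those hold TATAAA. A match describes the sequence and is not evidence of a site in use.

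The deposited signals are on 1 scale, with array medians of log2 signal between 4.49 and 4.57, lower quartiles of 3.21 to 3.24 and upper quartiles of 5.91 to 6. The number of arrays limits the precision of every value. The labels say no more of the mice than that they are separate samples, so p-values measure the spread between these samples. Lung identity was checked on the epithelial markers that carry a name, 5 of 12 in the list (Sftpa1, Lamp3, Abca3, Rtkn2 and Cyp2f2). These markers carry a name only where the authors listed them as changed, so their differences between groups are a description. Their mean log2 signal was 10.33 to 10.45 on the vehicle arrays, 8.57 to 9.26 with bleomycin and 9.54 to 10.01 with homoharringtonine. In bulk lung, fewer cells of a type and less RNA per cell cannot be told apart.

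With bleomycin against vehicle, the comparison that asks how the injured lung differs from the control lung, 7 of the 8 transcripts rose (5 of the 6 metalloproteinases, Adamts12 and Timp1) and 1, Mmp15, fell. The rises ran from 2.21-fold for Mmp2 to 12.8-fold for Timp1. All 8 genes passed an adjusted p of 0.05 in limma, fitted to all 41345 probe sets, of which 7.78% passed (3.37% higher and 4.42% lower). The arrays of the groups did not overlap for any of the 8, as for 28% of all probe sets. Since the members carry a name through this same contrast, nothing is read from these counts. The median log2 difference of the members was 1.47, beside 0.015 over all probe sets.

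**Figure D1:**
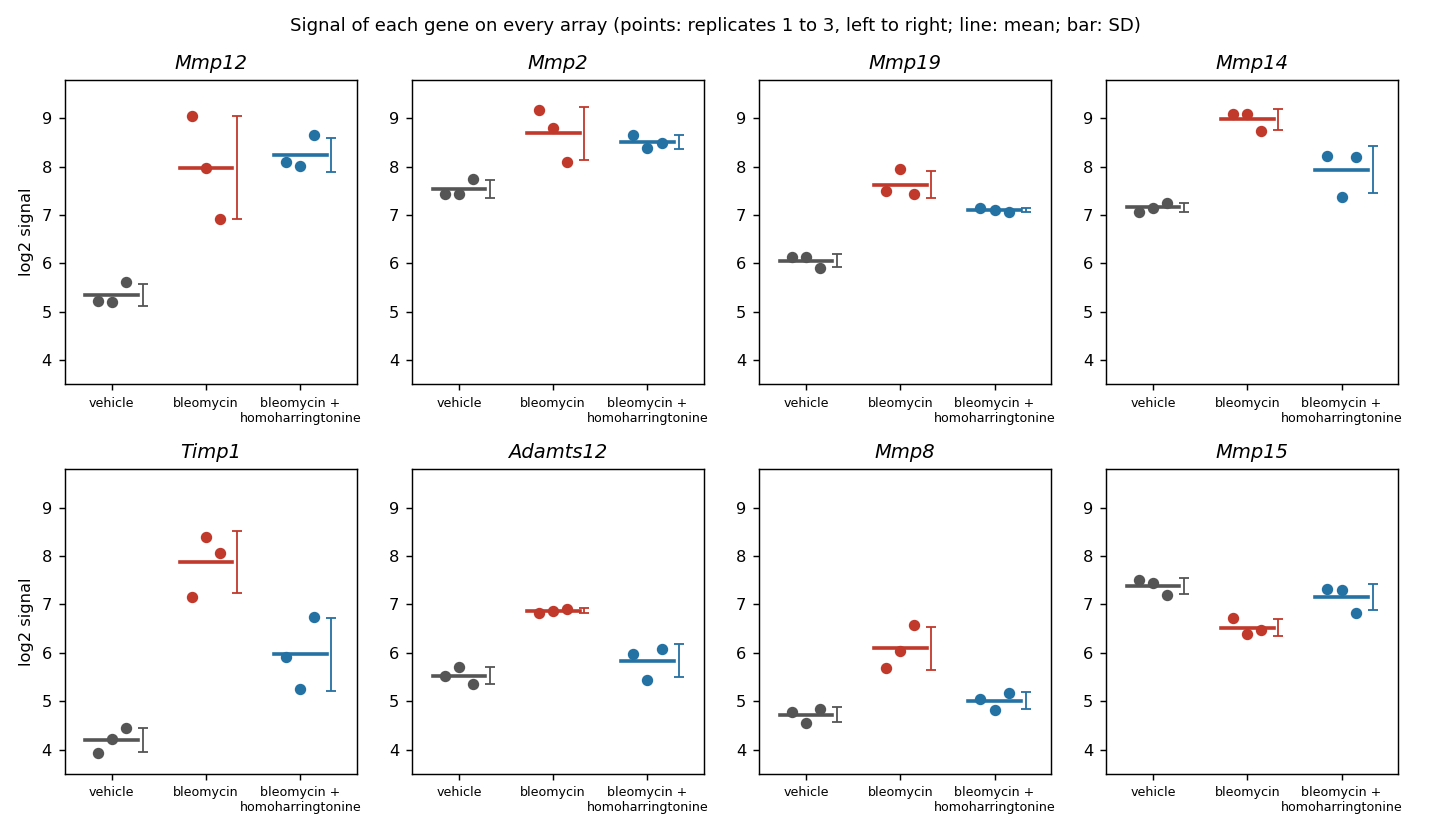
Log2 signal (y axis) of the 8 genes on each of the 9 arrays, by group (x axis), with points for replicates 1 to 3 from left to right, a line for the mean and a bar for the SD. Mmp12 and Mmp2 overlap between the bleomycin arrays with and without homoharringtonine, whereas the other 6 genes do not.

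Among the secreted enzymes, Mmp12, which degrades elastin, had log2 signals of 5.23, 5.21 and 5.61 on the vehicle arrays, 9.05, 7.97 and 6.91 on the bleomycin arrays and 8.1, 8.01 and 8.65 with homoharringtonine. All bleomycin-treated lungs lay above all vehicle lungs, and the arrays with and without homoharringtonine overlapped. The bleomycin mean of 7.98 ± 1.07 (SD, n = 3) was 6.17-fold above the vehicle mean of 5.35 ± 0.22 (SD, n = 3), with an adjusted p of 0.0127 in limma (0.0532 without vehicle replicate 2). The bleomycin arrays spread far more than the others, with replicate 1 the highest and replicate 3 the lowest. With homoharringtonine the mean was 8.25 ± 0.35 (SD, n = 3), 7.46-fold above vehicle (adjusted p 0.0441, limma), a call lost in 7 of 9 fits that left out 1 array, with adjusted p up to 0.17. Against bleomycin alone it differed by 0.27 on the log2 scale, with a 95% interval from -0.77 to 1.31 and an adjusted p of 0.877 (limma). That interval leaves room for a difference of over 2-fold upward, and the sign turned to -0.26 when bleomycin replicate 3 was left out.

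Mmp2, a gelatinase that also cuts type IV collagen, had signals of 7.44, 7.43 and 7.75 with vehicle, 9.17, 8.8 and 8.09 with bleomycin and 8.66, 8.38 and 8.49 with homoharringtonine. As for Mmp12, bleomycin replicate 1 was the highest array and replicate 3 the lowest of its group, and the homoharringtonine arrays lay between them. The rise with bleomycin was 2.21-fold (log2 difference 1.15, SE 0.24, adjusted p 0.0265 in limma). Mmp2 lost this call when vehicle replicate 1, 2 or 3 or bleomycin replicate 2 was left out, with adjusted p up to 0.0931 in limma. With homoharringtonine the signal differed from bleomycin by -0.18, with a 95% interval from -0.73 to 0.38 (adjusted p 0.842, limma). Against vehicle it was 1.96-fold higher, and the homoharringtonine arrays did not overlap the vehicle arrays, with an adjusted p of 0.118 in limma that does not pass. Without bleomycin replicate 3 the log2 difference from vehicle was 0.97 and passed, with an adjusted p of 0.0486. Without bleomycin replicate 1 the difference from bleomycin alone turned to 0.06.

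Mmp19, a secreted metalloproteinase with broad matrix substrates, had signals of 6.13, 6.14 and 5.91 with vehicle, 7.5, 7.95 and 7.43 with bleomycin and 7.15, 7.1 and 7.07 with homoharringtonine. The 3 groups did not overlap, and the homoharringtonine arrays lay close together (SD 0.04, n = 3), between the other groups. The gene rose 2.96-fold with bleomycin (adjusted p 0.00123, limma). It was 2.06-fold above vehicle with homoharringtonine (log2 difference 1.04, SE 0.14, adjusted p 0.0308 in limma), a call lost in 6 of 9 fits that left out 1 array, with adjusted p up to 0.159. The difference from bleomycin alone was -0.52, with a 95% interval from -0.85 to -0.19 and an adjusted p of 0.218 (limma).

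Mmp8, a collagenase stored in neutrophil granules, had signals of 4.77, 4.55 and 4.84 with vehicle, 5.68, 6.03 and 6.57 with bleomycin and 5.04, 4.82 and 5.16 with homoharringtonine. The bleomycin arrays stood above all others, while vehicle and homoharringtonine arrays overlapped. Bleomycin replicate 3, the lowest of its group for Mmp12 and Mmp2, was the highest for Mmp8. The rise with bleomycin was 2.59-fold (adjusted p 0.00837, limma). With homoharringtonine the mean was 5.01 ± 0.17 (SD, n = 3), 0.29 above vehicle on the log2 scale (95% interval -0.2 to 0.77, adjusted p 0.549 in limma). It was 1.09 below bleomycin alone (log2 difference -1.09, 95% interval -1.57 to -0.6, adjusted p 0.108 in limma), and without bleomycin replicate 1 this difference was -1.29 and passed, with an adjusted p of 0.0476.

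Neutrophil markers were set beside Mmp8. Of 14 in the list 6 carry a name. Markers carry one only where the authors listed them as changed, so their counts are a description. With bleomycin Lcn2 and Il1r2 rose, where 3.37% of all probe sets were called higher, and the other 4 did not pass. The mean log2 signal over the 6 was 5.33 to 5.57 on the vehicle arrays, 6.24, 7.36 and 7.57 on bleomycin replicates 1, 2 and 3, and 5.47 to 5.9 with homoharringtonine. The same bleomycin array was lowest, and the same highest, for this mean and for Mmp8. In the other groups only 1 end of the order matched. With vehicle the highest array was replicate 1 for the mean and replicate 3 for Mmp8. With homoharringtonine the lowest was replicate 1 for the mean and replicate 2 for Mmp8. With homoharringtonine against bleomycin 0 of the 6 passed in limma (0.0943% of all probe sets). An unadjusted p under 0.05 was reached by 4 (11.1% of all probe sets). The other 2, Lcn2 and Ltf, differed by -0.19 and -0.53 on the log2 scale, with arrays that overlapped. The calprotectin genes S100a8 and S100a9 did not pass in any comparison in limma, with adjusted p of 0.0953 and 0.132 for bleomycin against vehicle. Lcn2, also made by epithelium, was called 1.22 above vehicle with homoharringtonine on the log2 scale (adjusted p 0.0441, limma). The other 5 markers did not pass there, where 0.193% of all probe sets were called higher. The part of neutrophil numbers in the Mmp8 values was not tested.

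Of the membrane-bound enzymes, Mmp14 had signals of 7.06, 7.15 and 7.26 with vehicle, 9.1, 9.1 and 8.73 with bleomycin and 8.23, 7.38 and 8.2 with homoharringtonine. The groups did not overlap, although homoharringtonine replicate 2 came close to the highest vehicle array. Mmp14 rose 3.54-fold with bleomycin (adjusted p 0.00323, limma). With homoharringtonine it was 1.04 below bleomycin on the log2 scale (log2 difference -1.04, 95% interval -1.55 to -0.53, adjusted p 0.131 in limma). Against vehicle it was 0.78 higher (adjusted p 0.15, limma), and without homoharringtonine replicate 2 this was 1.06 and passed, with an adjusted p of 0.0429.

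Mmp15, the other membrane-bound metalloproteinase with a name here, went the opposite way. Its signals were 7.51, 7.44 and 7.19 with vehicle, 6.72, 6.38 and 6.47 with bleomycin and 7.31, 7.3 and 6.83 with homoharringtonine. The bleomycin arrays lay below all others, and vehicle and homoharringtonine arrays overlapped. The fall was 1.81-fold (log2 difference -0.86, SE 0.16, adjusted p 0.0175 in limma), and the call was lost without vehicle replicate 1 or 2 or bleomycin replicate 2 or 3, with adjusted p up to 0.066. With homoharringtonine Mmp15 was 0.63 above bleomycin on the log2 scale (95% interval 0.26 to 1, adjusted p 0.193 in limma) and -0.23 from vehicle (adjusted p 0.523, limma). The mean of the lung epithelial markers was likewise lowest on the bleomycin arrays, and among these highest on replicate 1, as for Mmp15. The part of epithelial content in the Mmp15 values was not tested.

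Adamts12, a secreted protease with thrombospondin repeats, showed the tightest bleomycin arrays of the 8 genes. Its signals were 5.53, 5.71 and 5.36 with vehicle, 6.82, 6.87 and 6.91 with bleomycin and 5.98, 5.44 and 6.08 with homoharringtonine. The homoharringtonine arrays lay below all bleomycin arrays and overlapped with vehicle. The rise with bleomycin was 2.53-fold (adjusted p 0.00376, limma). With homoharringtonine the gene was 2.04-fold below bleomycin (log2 difference -1.03, 95% interval -1.42 to -0.64), which at an adjusted p of 0.0791 in limma was the smallest of the 8 and did not pass. When probe sets under the median signal were left out of the test, it passed at an adjusted p of 0.0362. The difference from vehicle was 0.31 (95% interval -0.08 to 0.69, adjusted p 0.424 in limma).

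Timp1, the inhibitor, had the largest bleomycin difference of the 8 genes. Its signals were 3.93, 4.21 and 4.44 with vehicle, 7.16, 8.4 and 8.07 with bleomycin and 5.91, 5.26 and 6.75 with homoharringtonine. The 3 groups did not overlap, and the homoharringtonine arrays lay between the others with a wide spread of 5.97 ± 0.75 (SD, n = 3). The rise was 12.8-fold (log2 difference 3.68, SE 0.41, adjusted p 0.0022 in limma). The vehicle signals lay below the median of all probe sets on any array. With homoharringtonine the signal was 3.74-fold below bleomycin (log2 difference -1.9, 95% interval -2.83 to -0.98, adjusted p 0.13 in limma) and 3.44-fold above vehicle (adjusted p 0.095, limma). Neither passed over all probe sets. In the authors' deposited table for homoharringtonine against bleomycin, Timp1 is the only one of the 8 listed, 3.74-fold lower with an adjusted p of 1.22e-08 by the authors' LPE test.

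**Figure D2:**
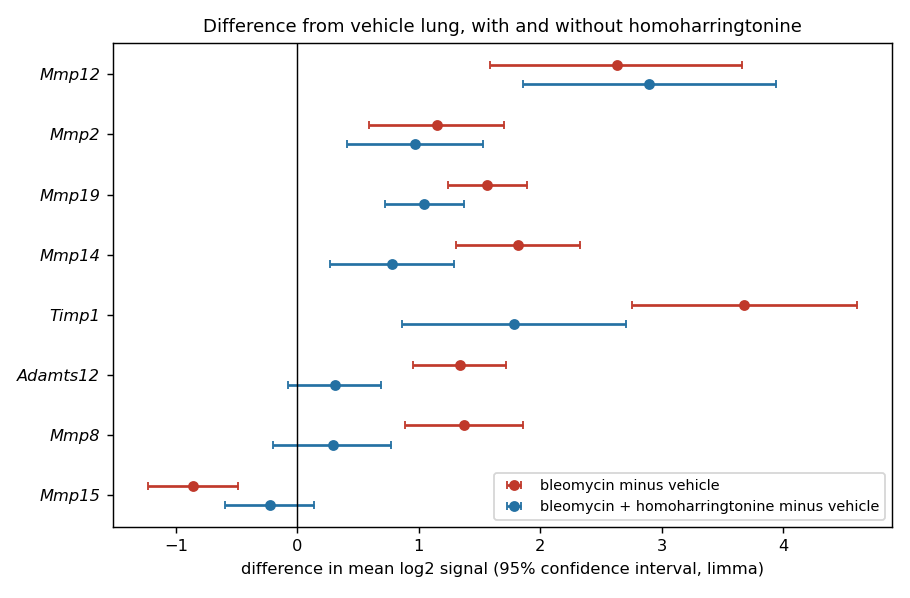
Difference in mean log2 signal from vehicle (x axis) for each gene (y axis), for bleomycin and for bleomycin plus homoharringtonine, with 95% confidence intervals from limma. The intervals with homoharringtonine exclude 0 for Mmp12, Mmp2, Mmp19, Mmp14 and Timp1 and include it for Adamts12, Mmp8 and Mmp15.

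For homoharringtonine plus bleomycin against bleomycin, the comparison of treated with untreated injury, limma called 0 of the 8 genes, as it called 0.0943% of all probe sets. At an unadjusted p under 0.05 there were 6, where 11.1% of all probe sets reached this. The same 6 genes (Mmp8, Mmp14, Mmp15, Mmp19, Adamts12 and Timp1) had arrays that did not overlap, as 14% of all probe sets did. Of these, Mmp15 was higher with the drug and the other 5 lower, so each was nearer to vehicle than with bleomycin alone. The median log2 difference was -0.78, beside -0.004 over all probe sets. The bleomycin arrays of this comparison also served to name the members, so the direction of these differences is not independent of that choice.

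For homoharringtonine plus bleomycin against vehicle, limma called 2 of the 8 genes, Mmp12 and Mmp19, both higher, where 0.506% of all probe sets were called and 0.193% called higher. Both calls were lost without any 1 of the vehicle or homoharringtonine arrays, and that of Mmp12 also without bleomycin replicate 2. The log2 differences stayed between 2.7 and 3.03 and between 0.97 and 1.08. There were 5 genes at an unadjusted p under 0.05, as 16% of all probe sets. The arrays did not overlap for 5 of the 8 (Mmp2, Mmp12, Mmp14, Mmp19 and Timp1), as for 21.1% of all probe sets. The members carry a name through comparisons that used these same arrays, so nothing is read from these counts. The authors' deposited table lists 4 members here, all above vehicle, with Mmp12 at 7.46-fold, Timp1 at 3.44-fold, Mmp2 at 1.96-fold (adjusted p 0.0229) and Mmp14 at 1.72-fold (adjusted p 0.0221). Mmp19, which limma called, is not in that comparison of the authors' deposited table.

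The genes differed in how much of the bleomycin difference was left with homoharringtonine, as a percentage of the log2 difference between bleomycin and vehicle. For Mmp12 it was 110% (91.8% to 139% over fits that each left out 1 of the 9 arrays), for Mmp2 84.5% (67.2% to 107%) and for Mmp19 66.7% (62.8% to 74.3%). For Timp1 it was 48.4% (37.8% to 58.1%) and for Mmp14 42.8% (34.8% to 58%). Mmp15 kept 27.1% of its fall (8.62% to 36.7%), Adamts12 23% of its rise (13.7% to 37.7%) and Mmp8 20.9% (15.1% to 27.6%). Ranges of neighbours in this order meet or overlap, except between Mmp19 and Timp1. These ranges show the weight of single arrays and are not confidence intervals. The bleomycin difference in each percentage also served to name the members, so the percentages are not independent of that choice.

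**Figure D3:**
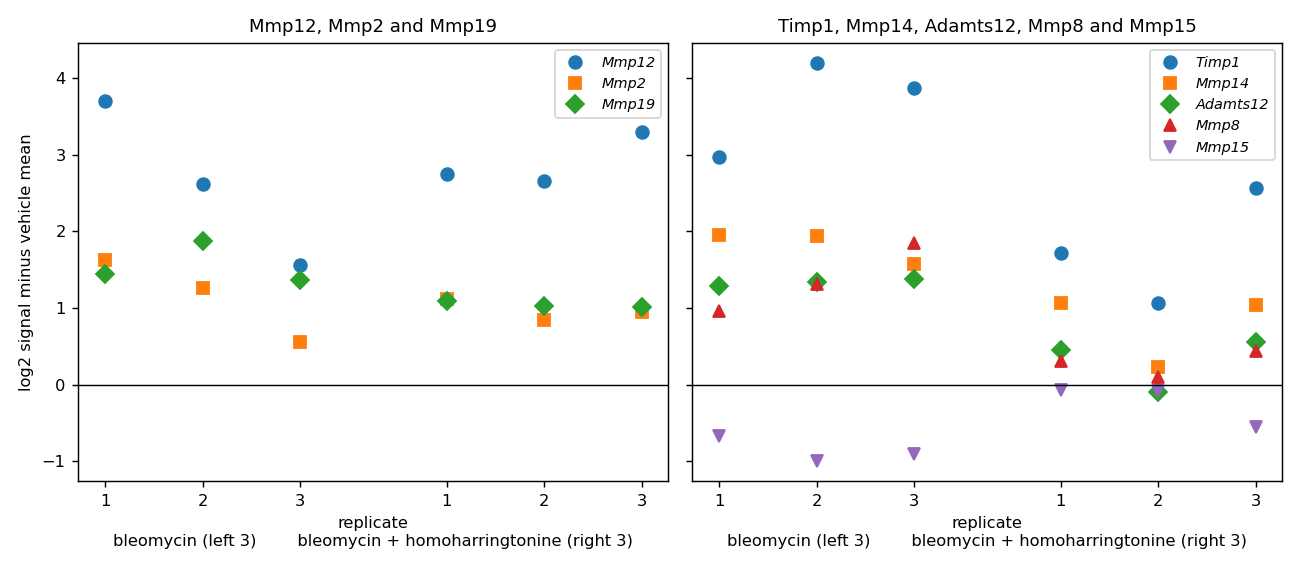
Log2 signal minus the vehicle mean of the same gene (y axis) on each bleomycin and homoharringtonine array (x axis), with Mmp12, Mmp2 and Mmp19 on the left and the other 5 genes on the right. Mmp12 with homoharringtonine sits between 2.66 and 3.3, within the 1.56 to 3.7 of bleomycin alone, while Timp1 goes from 2.97 to 4.2 down to 1.06 to 2.56.

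Whether a gene lay nearer to its bleomycin or its vehicle level was tested with the contrast of homoharringtonine against the midpoint of both. Limma called 0 of the 8 genes and 0.00726% of all probe sets (3 of 41345). At an unadjusted p under 0.05 there were 2, where 8.35% of all probe sets reached it. Mmp12 lay 1.59 above the midpoint on the log2 scale (95% interval 0.69 to 2.49, adjusted p 0.405) and Adamts12 at -0.36 from it (95% interval -0.7 to -0.03, adjusted p 0.573). Timp1 and Mmp14 lay at -0.06 and -0.13 from the midpoint. The split into genes that stayed near the bleomycin level and genes that did not is therefore a description that did not pass a test. The midpoint rests on arrays that also served to name the members, so nothing is read from the counts here.

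Differences between members were tested on the 28 pairs, as the change between the bleomycin arrays and those with homoharringtonine in the log2 difference of a pair within each array. The exact permutation test, 2-sided, cannot go below p = 0.1 with 3 arrays against 3, and 0 of 28 pairs passed after Benjamini-Hochberg adjustment, with the smallest adjusted p at 0.295. Mmp12 and Timp1 had the widest gap among genes that rose. Relative to Timp1, Mmp12 was at 1.89, -0.43 and -1.16 on the bleomycin arrays and at 2.19, 2.75 and 1.89 with homoharringtonine, a shift of 2.18 (exact p = 0.1, 2-sided). On this measure the homoharringtonine arrays did not lie below any bleomycin array, and bleomycin replicate 1 came level with the lowest of them. Mmp2 relative to Timp1 shifted by 1.72 (exact p = 0.2). Mmp14 relative to Mmp2, the activator and its substrate enzyme, shifted by -0.86 (exact p = 0.1), from -0.06, 0.3 and 0.64 on the bleomycin arrays to -0.43, -1 and -0.29. Adamts12 and Mmp14 differed least, with a shift of 0.01 (exact p = 1).

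Over the 9 arrays the genes whose log2 signal was most like that of a member were looked up among 1542 other named genes. The arrays fall into 3 groups, and shared group differences enter every value, so the correlations are a description only. For Mmp12 these were the leukocyte integrin Itgb2 (Pearson r = 0.961), the cysteine protease Ctss (0.953) and the lectin receptor Clec4n (0.952). For Mmp19 they were Cd63, Gpnmb and Trem2 (0.984, 0.984 and 0.983), which are also in the list of monocyte-derived macrophage markers. Mmp14 was most like the microfibril gene Fbn1 (0.987), the protease inhibitor Serpine2 (0.98) and the growth factor Pdgfc (0.979). Timp1 was most like the galectin Lgals1 (0.995), the cystatin Cstb (0.99) and the scavenger receptor Msr1 (0.987). Msr1 is likewise in the list of monocyte-derived macrophage markers. For Adamts12 they were the phosphate transporter Slc20a2 (0.988), Atp6v0c-ps2 (0.986) and Gadd45g (0.98), and for Mmp8 the proteasome subunit Psmd8 (0.985), the activin-binding Fst (0.983) and Nrep (0.982).

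Macrophage and fibroblast markers were set beside these genes. Like the members, markers carry a name only where the authors listed them as changed, so their counts are a description. Of 12 markers of monocyte-derived macrophages 11 carry a name, and all 11 rose with bleomycin, where 3.37% of all probe sets were called higher. Their mean log2 signal was 5.76 to 5.82 with vehicle, 7.98 to 8.52 with bleomycin and 6.95 to 7.57 with homoharringtonine. The homoharringtonine arrays thus lay between the other groups, as for Mmp14, Mmp19 and Timp1 and unlike Mmp12. Of these 11, 6 were called above vehicle with homoharringtonine (0.193% of all probe sets). Against bleomycin 0 were called in limma (0.0943% of all probe sets), and 10 reached an unadjusted p under 0.05 (11.1% of all probe sets). Ms4a7 differed least between the drug and bleomycin alone, by -0.01 on the log2 scale. Of 11 alveolar macrophage markers 6 carry a name, with a mean of 7.11 to 7.32 with vehicle, 6.6 to 6.95 with bleomycin and 6.43 to 6.74 with homoharringtonine. Within that list Marco, a scavenger receptor, rose with bleomycin, Ear1, Fabp1 and Krt79 fell, and Chil3 and Car4 did not pass. Of 12 fibroblast and myofibroblast markers 9 carry a name, and 5 rose and 3 fell with bleomycin. Their mean was 8.03 to 8.08, 8.36 to 8.68 and 8.19 to 8.37 in the same order of groups. All 6 endothelial markers carry a name, with a mean of 9.76 to 9.82 with vehicle, 8.32 to 8.7 with bleomycin and 8.74 to 9.22 with homoharringtonine. The part of cell numbers in the values of the members was not tested.

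Other genes of matrix turnover were taken from a list of 51 proteases, inhibitors, activators and receptors. Of these 15 carry a name. With bleomycin 12 rose and 2 fell in limma, where 7.78% of all probe sets were called, and the tissue plasminogen activator Plat did not pass (log2 difference 0.83, adjusted p 0.0548). They were named because they had been listed as changed, so this count is not evidence of direction. The serine protease inhibitor Serpine2 rose 3.51-fold. The collagen-degrading cathepsin Ctsk rose 6.45-fold. Furin, which cleaves the precursor of Mmp14, rose 1.99-fold, and Plaur, the urokinase receptor, 1.98-fold. Reck, a membrane-anchored inhibitor of metalloproteinases, fell 2.04-fold, from a mean log2 signal of 7.16 ± 0.08 to 6.13 ± 0.17 (SD, n = 3 each). It thus went the opposite way to the inhibitor Timp1, and with homoharringtonine it was at 6.61 ± 0.13 (SD, n = 3). Adamts10 fell 2.14-fold, while Adamts2, which removes the amino-terminal propeptide of collagens, rose 1.8-fold.

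With homoharringtonine against bleomycin 0 of the 15 passed in limma, where 0.0943% of all probe sets did, and 13 had an unadjusted p under 0.05, where 11.1% did. Their median log2 difference was -0.69, near that of the 8 members. Both sets were named in part on the bleomycin and vehicle arrays. The counts here and the likeness of the medians are thus not independent of that choice. Against vehicle 2 passed, where 0.506% of all probe sets did. These were the cathepsins Ctsk (4.02-fold higher, adjusted p 0.0308) and Ctss (2.73-fold higher, adjusted p 0.035). The cathepsins Ctsb and Ctsl did not pass against vehicle (adjusted p 0.069 and 0.116, limma). With the drug their arrays lay below all bleomycin arrays, at log2 differences of -0.5 and -0.84 from bleomycin alone. For Ctss the log2 difference from bleomycin alone was -0.21 (95% interval -0.68 to 0.26), and the arrays of these groups overlapped, as for Mmp12. Bmp1, the procollagen C-proteinase, Ctsk and Adamts10 also had arrays that overlapped with bleomycin alone. Lrp1, an endocytic receptor that clears Mmp2 and other proteases, lay 0.05 above vehicle (95% interval -0.21 to 0.31) after a 1.66-fold rise with bleomycin.

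**Figure D4:**
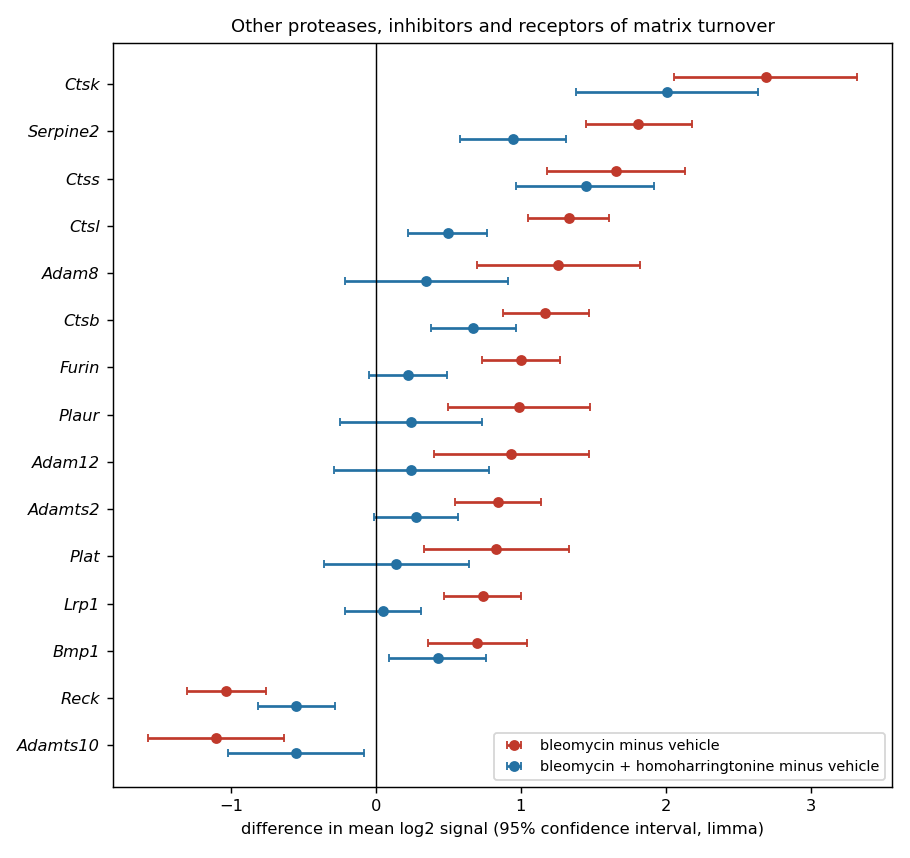
Difference in mean log2 signal from vehicle (x axis) for the 15 named genes of the matrix turnover list (y axis), for bleomycin and for bleomycin plus homoharringtonine, with 95% confidence intervals from limma. Ctsk and Ctss lie furthest from 0 with homoharringtonine, at 2.01 and 1.45, and Lrp1 nearest, at 0.05.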

How the data were processed

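The authors deposited a table of log2 signals for 41345 probe sets on 9 arrays. The submitters' processing notes name Affymetrix Power Tools and R 3.5.1. How the signals were normalized is not given in the sources used for this work. The authors' comparison tables hold, per the file headers, a signed fold change (treated here as a score) and adjusted p-values of an LPE test, plus KEGG false discovery rates, for listed probe sets only. Of 14904 log2 values repeated there, 0 differed from the value table by over 1e-06. Their folds equal 2 to the power of the difference of mean log2 signals to within 1%.

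Group means were fitted to all 9 arrays and all probe sets with limma 3.58.1 in R 4.3.3 (lmFit, eBayes, 6 residual and 2.66 prior degrees of freedom). Tests were 2-sided, with Benjamini-Hochberg adjustment over 41345 probe sets at 0.05, and no detection filter. Scripts were tested on simulated data. Where a gene had several probe sets, that with the highest mean was used. The text names all members and the 3 genes most like each of the 6 members chosen by name. Likeness was the highest Pearson correlation, with predicted genes and small RNAs left out. Genes of the turnover list could be named only where the authors listed them as changed, which held for 15 of 51. These are named whether or not they passed in limma, except Adam8 and Adam12, which appear only in the plot of the turnover list. The members and lists were chosen with earlier results of these data known. Alternatives were fits to the groups compared alone, eBayes with trend and robust, array weights, centring on the median, quantile normalization, leaving out dim probe sets, the replicate number as a block, and leaving out each array. No control probe sets were left out. The turnover list was counted without 1 gene, which is not reported here.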

Additional observations from a re-analysis of the deposited data

How the results depend on the processing

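The number of members called for bleomycin against vehicle was 8, and 5 to 8 when 1 array was left out, the lowest without vehicle replicate 2, where Mmp12, Mmp2 and Mmp15 no longer passed. It was 7 in the fit to those groups alone (Mmp2 at an adjusted p of 0.0662, limma) and 7 with the replicate number as a block. For homoharringtonine against bleomycin the count was 0, and 1 when probe sets under the median signal were left out (Adamts12). It was 0 to 1 when 1 array was left out. For homoharringtonine against vehicle the count of 2 ranged from 0 to 3 when 1 array was left out. It was 0 with the replicate number as a block, where Mmp12 had an adjusted p of 0.0946 and Mmp19 of 0.073 in limma. The block also took the adjusted p of Mmp2 for bleomycin against vehicle to 0.0511. The labels do not say whether the replicate numbers pair the mice. Deviations of arrays with the same number correlated between -0.137 and 0.093, and of arrays with different numbers between -0.064 and 0.111. With so few arrays these values cannot exclude a pairing. Under the other settings these counts were as in the report, and the count against the midpoint was 0 under all settings run. The pair test cannot pass with so few arrays under any setting, so its count of 0 says nothing of stability. A fit with fewer arrays has fewer degrees of freedom.

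Signs turned only for differences that were not called, and, but for 1 pair, only when 1 array was left out. Mmp12 and Mmp2 against bleomycin ran from -0.26 to 0.81 and from -0.47 to 0.06. Against the midpoint Mmp14 ran from -0.28 to 0.15 and Timp1 from -0.45 to 0.3. The pair shifts ran from -0.07 to 0.16 for Adamts12 and Mmp14 (-0.05 with quantile normalization), from -0.16 to 0.24 for Adamts12 and Mmp8, from -0.86 to 0.09 for Mmp12 and Mmp15, and from -0.32 to 0.31 for Mmp14 and Mmp8. The cause was not tested. Each gene had 1 named probe set, so no other could be tried. Median centring and quantile normalization moved the median of all probe sets for bleomycin against vehicle from 0.015 to 0.053 and 0.027 on the log2 scale.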

Other observations

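In the authors' deposited table of pathways 4 of the 8 genes have an entry. For bleomycin against vehicle, the authors' deposited table places Mmp2 in 10 KEGG pathways, among them AGE-RAGE signaling (false discovery rate 4.84e-13) and leukocyte transendothelial migration (0.000137). The authors' deposited table has Mmp14 in TNF signaling (0.00035), Mmp14 and Mmp15 in the parathyroid hormone pathway (0.000809) and Timp1 in HIF-1 signaling (3.85e-07). For homoharringtonine against bleomycin the authors' deposited table has 1 entry for these genes, Timp1 in HIF-1 signaling (0.133). For homoharringtonine against vehicle the authors' deposited table again has Mmp2, Mmp14 and Timp1, with false discovery rates of 0.00286 for Mmp2 in proteoglycans in cancer, 0.043 for Mmp2 in AGE-RAGE signaling, 0.0476 for Timp1 in HIF-1 signaling and 1 for Mmp14 in TNF signaling. These rates describe each pathway's count of listed genes and not the single gene.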
